A study of Homo sapiens with 6 samples.

Results

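The CAMKK2-AMPK energy sensing genes comprise 10 genes, CAMKK2, CAMKK1, STK11, PRKAA1, PRKAA2, PRKAB1, PRKAB2, PRKAG2, PPARGC1A and PFKFB2, chosen by symbol for their known roles among 55765 gene symbols counted. These genes, and the pathway lists below, were chosen with earlier results of these data known. The 10 genes were followed in the castration-resistant human prostate cancer (PCa) cell line C4-2, a subline of LNCaP. The cells were grown in medium with fetal bovine serum. RNA-seq was made of 3 cultures treated with the solvent DMSO and 3 treated with 1 nM of the synthetic androgen R1881, a supraphysiological androgen level (SAL), each for 72 h. Both groups are the same cell line, so the model is that of 1 tumour, and the replicate numbers 1 to 3 occur in both groups. The question was how SAL treatment changed the transcripts of the kinases that switch on AMPK, of AMPK itself and of its metabolic effectors.

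AMP-activated protein kinase (AMPK) is the energy sensor of the cell. It is built from a catalytic alpha, a scaffolding beta and a nucleotide-binding gamma subunit, and it is switched on when an upstream kinase phosphorylates the alpha subunit. LKB1, encoded by STK11, does so under energy stress, and the calcium/calmodulin-dependent kinase kinases, of which CAMKK2 is the best known for AMPK, do so when calcium rises. Active AMPK slows fat and sterol synthesis and favours glucose uptake, glycolysis and mitochondrial oxidation, and CAMKK2 is a known androgen-induced gene of prostate cancer cells.

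SAL treatment raised CAMKK2 about 3.25-fold, the largest change of the 9 genes tested. The genes of the main catalytic subunit (PRKAA1), of the second beta subunit (PRKAB2) and of the glycolytic regulator PFKFB2 rose by 36 to 50%. STK11, the gene of LKB1, and CAMKK1 did not pass the test. Of the 10 genes, 9 had enough reads to be tested, and 4 of the 9 were differentially expressed genes (DEGs, adjusted p under 0.05 in edgeR's quasi-likelihood test with the replicate number as a block), all up-regulated, against 11.5% of the 16835 genes tested. None of the 9 was a down-regulated DEG, against 9.37% of all genes tested, while 1 of them, CAMKK1, was lower at an unadjusted p under 0.05. With DESeq2 and the block, 3 were up-regulated and none was down-regulated. On the log2 scale the 9 genes had a median change of 0.38, against -0.0011 for all genes tested. In bulk RNA, fewer cells that express a gene and less RNA per cell cannot be told apart.

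DMSO and SAL libraries of the same replicate number deviated together from their group means, and the calls depended on taking this into the fit. Without the replicate block, none of the 9 genes was a DEG in edgeR, with 1 at an unadjusted p under 0.05, and the adjusted p of each of the 4 up-regulated genes was 1. Their log2 fold changes were then 1.67, 0.61, 0.45 and 0.56 for CAMKK2, PRKAA1, PRKAB2 and PFKFB2. For none of the 9 genes tested did all SAL libraries lie above or below all DMSO libraries, which was so for 3.78% and 3.73% of all genes tested. The libraries held 6931042 to 8186483 counts without rRNA genes in DMSO and 8112598 to 9776990 in SAL. The 7 luminal prostate markers KLK3, KLK2, TMPRSS2, HOXB13, KRT8, KRT18 and EPCAM were detected in every library and summed to 1147 to 2970 CPM (counts scaled by library size) in DMSO and 2876 to 6671 CPM in SAL. The 9 markers of immune, stromal, endothelial and basal cells found in the counts summed to 4.71 to 20.8 CPM, with PTPRC, CD3E and KRT5 at 0 throughout. Among them ACTA2, a smooth muscle actin, was higher in SAL, at 5.48 to 10.9 CPM against 1.09 to 1.49 CPM (adjusted p = 6.63e-06, edgeR), and its part in the results was not tested. KLK3 and FKBP5, 2 known androgen-induced genes, rose under SAL by 1.21 (adjusted p = 3.33e-07) and 3.36 (adjusted p = 1.84e-11, edgeR) on the log2 scale.

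**Figure D1:**
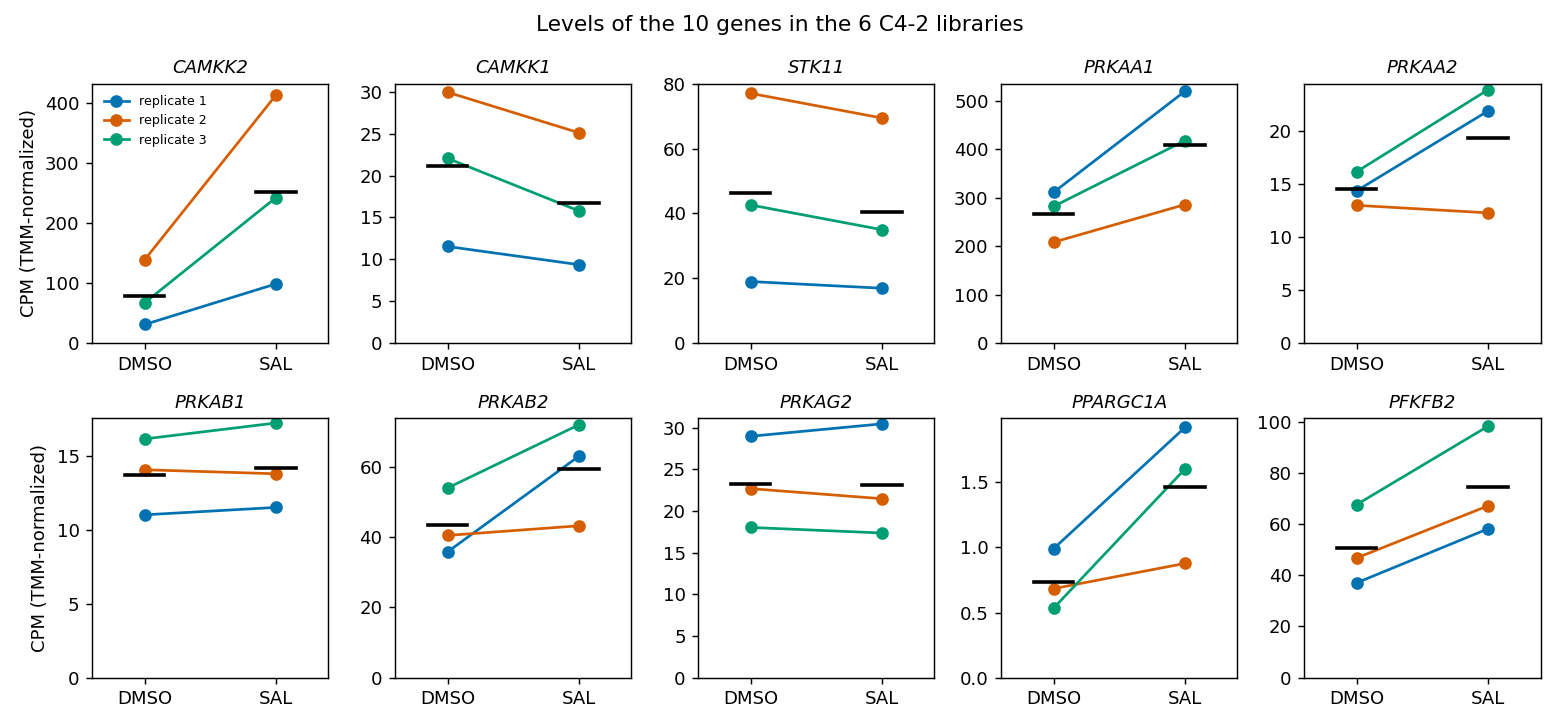
Levels of the 10 genes in CPM (linear axis from 0) in the DMSO and SAL libraries, with lines joining libraries of the same replicate number and black bars for the group means (n = 3). The CAMKK2 lines all climb steeply while starting from different levels, those of STK11 and CAMKK1 slope slightly down, and each group overlaps the other.

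CAMKK2 lies on the minus strand of chromosome 12 (121675478 to 121736111 in GRCh37), and no exon of another annotated gene overlaps its exons. It had 30.7, 139 and 66.9 CPM in DMSO (replicates 1, 2 and 3) and 98.5, 414 and 243 CPM in SAL, from 248 to 1015 reads and 769 to 3771 reads. Each SAL library was far above the DMSO library of its own number, yet DMSO replicate 2 was above SAL replicate 1. The mean level was 78.8 ± 55 CPM in DMSO and 252 ± 158 CPM in SAL (SD, n = 3). The log2 fold change was 1.70 ± 0.10 (standard error of the fit, SE, with an adjusted p = 9.14e-09, edgeR), with 1.67, 1.57 and 1.85 in pairs 1, 2 and 3. Its adjusted p was the 64th smallest among the 16835 genes. The levels of CAMKK2 differed 4.52-fold between the DMSO replicates, in the order 1, 3, 2, and 4.2-fold between the SAL replicates, in the same order, whereas the median gene differed 2.25-fold and 2.30-fold. The summed luminal markers followed the same order, with 1147, 1559 and 2970 CPM in DMSO replicates 1, 3 and 2 and 2876, 3985 and 6671 CPM for those of SAL. The part of this order in the levels of CAMKK2 was not tested.

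CAMKK1, the paralogue of CAMKK2 on chromosome 17 (3763609 to 3798185, minus strand), is better known for activating CaM kinases than AMPK. It had 11.5, 29.95 and 22.1 CPM in DMSO and 9.35, 25.1 and 15.8 CPM in SAL (replicates 1, 2 and 3). It was a little lower in SAL in each pair, by less than the gaps between replicates. Its log2 fold change was -0.34 ± 0.14 (SE, adjusted p = 0.109, edgeR). STK11 on chromosome 19 (1177557 to 1228430, plus strand), whose product LKB1 is the kinase that activates AMPK under energy stress, had 18.96, 77.1 and 42.6 CPM in DMSO and 16.9, 69.5 and 35.0 CPM in SAL. These values were also slightly lower in each pair and spread 4.07-fold between the DMSO replicates, in the same order of replicates as for CAMKK2 and CAMKK1. The log2 fold change of STK11 was -0.20 ± 0.11 (SE, adjusted p = 0.226, edgeR), and 145 bp of its exons overlap CBARP on the opposite strand, which the counting did not separate.

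Set against each other within a library, the 3 upstream kinases stood in different proportions in DMSO and SAL. Per exon length (RPKM, the CPM of a gene per kilobase of its merged exons), CAMKK2 made up 53.6%, 60.2% and 54.5% of the summed level of the 3 genes in DMSO (replicates 1, 2 and 3) and 81.2%, 83.6% and 84.7% in SAL. STK11 made up 26.9 to 28.2% in DMSO and 9.95 to 11.4% in SAL, and CAMKK1 made up 12.5 to 19.4% and 4.90 to 7.44%. The groups did not overlap in the share of CAMKK2. The higher share in SAL largely restates the rise of CAMKK2 and is no separate result. The size of each share rests on merged exons of a newer annotation than the one used for counting. The shares sum to 100%, so those of STK11 and CAMKK1 are lower wherever that of CAMKK2 is higher and are no separate result. The log2 ratio of CAMKK2 to CAMKK1 was 1.396, 2.20 and 1.59 in DMSO and 3.36, 4.03 and 3.92 in SAL, a difference of 2.04. The exact two-sided permutation test gave p = 0.1 (adjusted p = 0.267 over 4 ratios of paralogues), and 0.1 is the smallest p that 3 libraries against 3 allow.

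**Figure D2:**
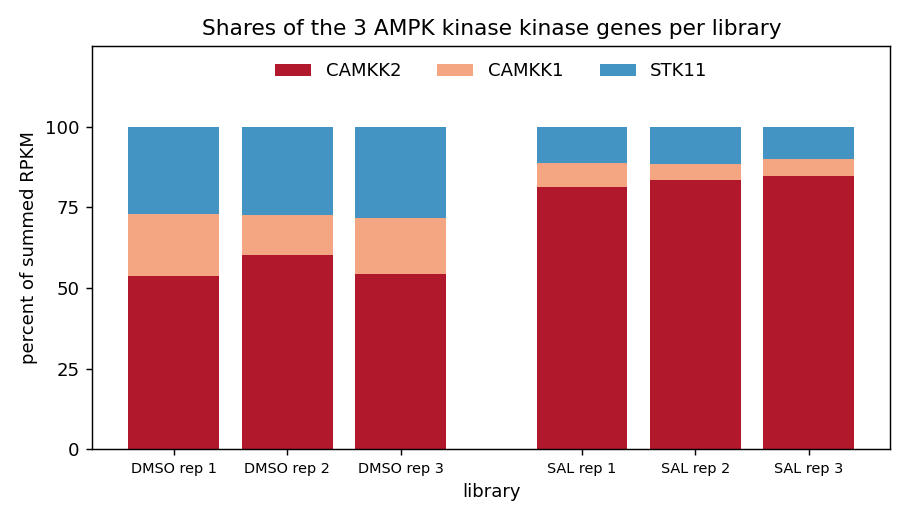
Share of CAMKK2, CAMKK1 and STK11 in their summed RPKM (percent, stacked bars) in each of the 6 libraries. CAMKK2 takes 53.6 to 60.2% of the bars in DMSO and 81.2 to 84.7% in SAL.

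The promoter windows of the 3 upstream kinases are shown because only CAMKK2 of the 3 was a DEG. Each holds the 250 bases before the RefSeq transcription start, 5′ to 3′ on the coding strand, with capitals for CCAAT in either orientation, the CCAAT box to which the factor NF-Y binds. The windows lie at chr12:121734513-121734762 (minus strand), chr17:3796348-3796597 (minus strand) and chr19:1205527-1205776 (plus strand) in GRCh37, inside the annotated gene spans and outside annotated exons but for 1 base of CAMKK2.
CAMKK2: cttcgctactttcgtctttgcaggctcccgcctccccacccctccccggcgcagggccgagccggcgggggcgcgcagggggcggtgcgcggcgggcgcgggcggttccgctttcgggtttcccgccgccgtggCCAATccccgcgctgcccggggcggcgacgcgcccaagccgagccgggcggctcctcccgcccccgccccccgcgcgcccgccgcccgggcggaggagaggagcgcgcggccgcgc
CAMKK1: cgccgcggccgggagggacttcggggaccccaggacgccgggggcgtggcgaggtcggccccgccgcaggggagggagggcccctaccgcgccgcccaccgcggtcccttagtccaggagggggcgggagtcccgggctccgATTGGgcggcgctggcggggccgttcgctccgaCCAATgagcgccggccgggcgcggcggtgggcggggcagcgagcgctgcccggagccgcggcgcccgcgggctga
STK11: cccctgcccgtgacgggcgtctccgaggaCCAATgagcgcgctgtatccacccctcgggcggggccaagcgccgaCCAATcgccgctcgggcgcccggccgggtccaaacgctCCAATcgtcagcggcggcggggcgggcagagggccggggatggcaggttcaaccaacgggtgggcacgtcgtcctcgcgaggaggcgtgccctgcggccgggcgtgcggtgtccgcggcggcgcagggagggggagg
CAMKK1 has a second RefSeq start, whose window (chr17:3794038-3794287, minus strand) is 58% G and C and holds neither CCAAT nor GGGCGG. The windows shown are 82.8%, 82.0% and 76.0% G and C, and hold 1, 2 and 3 CCAAT matches and 8, 4 and 2 matches to the GC box GGGCGG, which Sp1 binds. Among all 35116 promoter windows of the same length, searched on both strands, 32% hold CCAAT and 42.6% hold GGGCGG. PFKFB2 had no window, and PRKAG2 alone had 5. Over the 9 other genes of the 10, PRKAG2 included, 5 of 15 windows hold CCAAT and 8 of 15 hold GGGCGG. The palindromic androgen response element, AGAACA and TGTTCT with 3 free bases between, was in none of the 15 windows of the 9 genes with an entry and in 0.00285% of all windows. An exact match this rare cannot tell these genes from others, and sequence beyond the 250 bases was not searched. The left arm AGAACA, searched on both strands so that it includes both arms of the palindrome, was in 1 of the 15 windows and in 12.4% of all. CACGTG was in 1 of the 15 windows and in 6.34% of all, and TATAAA was in none and in 10.7% of all. The window with CACGTG was that of a PPARGC1A start at chr4:24474529-24474778 (minus strand, GRCh37), outside the annotated span of the gene. The other PPARGC1A window did not hold CACGTG.

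PRKAA1, the gene of the catalytic subunit alpha 1, was the most abundant of the 10 per exon length in the DMSO libraries. It lies on chromosome 5 (40759491 to 40798476, minus strand). It had 312, 208 and 283 CPM in DMSO and 521, 286 and 418 CPM in SAL (replicates 1, 2 and 3). Every pair rose, with SAL replicate 2 below DMSO replicate 1. Its change on the log2 scale was 0.59 ± 0.09 (SE, adjusted p = 0.000308, edgeR), a rise of 50.4%, with 0.74, 0.46 and 0.57 in the 3 pairs. The order of its replicates, 2, 3 and 1 from low to high, was the reverse of that of CAMKK2 in both groups.

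PRKAA2 encodes the alternative catalytic subunit alpha 2 and lies on chromosome 1 (57110987 to 57181008, plus strand). It had 14.4, 12.99 and 16.2 CPM in DMSO and 21.9, 12.3 and 23.9 CPM in SAL. Replicates 1 and 3 were higher in SAL and replicate 2 was not. The fitted log2 fold change was 0.38 ± 0.17 (SE, adjusted p = 0.124, edgeR). Without replicate 2 it was 0.57 (adjusted p = 0.0296, edgeR), and PRKAA2 passed in only this 1 of 9 alternatives. It was 0.27 without replicate 1 (adjusted p = 0.306) and 0.28 without replicate 3 (adjusted p = 0.604, edgeR). Per exon length, PRKAA1 made up 95.8 to 96.9% of the 2 alpha genes in DMSO and 96.2 to 97.1% in SAL, and their log2 ratio was 0.23 higher in SAL (exact two-sided permutation test, p = 0.2, adjusted p = 0.267). This difference was 0.14, 0.54 and 0.01 in the 3 pairs, and 0.08 without replicate 2.

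The beta subunits carry AMPK to membranes and glycogen. PRKAB2, on chromosome 1 (146626685 to 146644129, minus strand), had 35.8, 40.5 and 54.0 CPM in DMSO and 63.0, 43.2 and 72.0 CPM in SAL. The rise was large in pairs 1 and 3 and slight in pair 2, with log2 differences of 0.81, 0.41 and 0.09. On the log2 scale the change was 0.44 ± 0.13 (SE, adjusted p = 0.0228, edgeR). PRKAB2 lost the call in the blocked DESeq2 test (adjusted p = 0.0783), without replicate 1 (log2 fold change 0.26, adjusted p = 0.1) or without replicate 3 (adjusted p = 0.195). The single AGAACA match of the set lay at its promoter, starting 9 bases before the RefSeq start, in the last 30 bases of the window (chr1:146644050-146644079, minus strand, GRCh37, within an annotated exon of PRKAB2). Capitals mark AGAACA and, to its left, CCAAT in the other orientation.
PRKAB2: tttATTGGtggcctgatctgcAGAACAgcc
A match of these letters is a description of the window only.

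PRKAB1, the beta 1 gene on chromosome 12 (120105669 to 120119429, plus strand), had 11.0, 14.1 and 16.2 CPM in DMSO and 11.5, 13.8 and 17.3 CPM in SAL. Libraries of the same number were nearly level. The log2 fold change was 0.04 ± 0.16 (SE, adjusted p = 0.883, edgeR). Per exon length, PRKAB2 was the larger of the 2 beta genes, with 76.1 to 78.7% in DMSO and 77.6 to 85.8% in SAL. The log2 ratio of PRKAB1 to PRKAB2 was lower in SAL by 0.75, 0.12 and 0.32 in the 3 pairs (exact two-sided permutation test, p = 0.3, adjusted p = 0.300).

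PRKAG2, a gene of the gamma subunit that senses AMP and ATP, lies on chromosome 7 (151253210 to 151574299, minus strand). It had 29.0, 22.7 and 18.0 CPM in DMSO and 30.5, 21.5 and 17.4 CPM in SAL, so that each SAL library was close to its DMSO partner. Its change on the log2 scale was -0.02 ± 0.13 (SE, adjusted p = 0.950, edgeR). PRKAG2-AS1, a noncoding gene on the opposite strand that shares 99 bp of exon with it, fell, with 34, 62 and 25 reads in DMSO and 7, 26 and 12 in SAL (log2 fold change -1.61, adjusted p = 0.00118, edgeR, named after its values were seen). Reads in the shared stretch could not be assigned by strand. PRKAG1, the gamma 1 gene, made up 88.8 to 93.4% of the level of the 2 gamma genes per exon length in DMSO and 89.1 to 93.6% in SAL, and part of its exons is shared with other annotated genes.

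PFKFB2 encodes an enzyme that makes and removes fructose 2,6-bisphosphate, the activator of phosphofructokinase, and its heart form is a substrate of AMPK. It lies on chromosome 1 (207207711 to 207254369, plus strand). It had 37.04, 46.8 and 67.6 CPM in DMSO and 58.1, 67.1 and 98.2 CPM in SAL. All pairs rose by similar amounts, with 0.65, 0.52 and 0.54 on the log2 scale, and DMSO replicate 3 was above SAL replicates 1 and 2. The fitted log2 fold change was 0.57 ± 0.10 (SE, adjusted p = 0.000657, edgeR). Its exons share 315 bp with YOD1 on the opposite strand, whose own log2 fold change was -0.06 (adjusted p = 0.732). PFKFB3, the inducible form of the enzyme, fell, with a log2 fold change of -0.45 ± 0.13 (SE, adjusted p = 0.0260, edgeR). The log2 ratio of PFKFB2 to PFKFB3 was higher in SAL by 1.04, 1.00 and 0.97 in the 3 pairs. Its levels ranged from 0.18 to 1.99 in DMSO and from 1.18 to 3.03 in SAL and overlapped (exact two-sided permutation test that ignores the pairs, p = 0.2, adjusted p = 0.267). With the pairs kept, the exact sign-flip test gave p = 0.25 for this ratio and for each of the other 3, the smallest p that 3 pairs allow.

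PPARGC1A encodes PGC-1alpha, the coactivator that drives mitochondrial biogenesis, and lies on chromosome 4 (23756664 to 23905712, minus strand). It had few reads, with 8, 5 and 4 reads in DMSO and 15, 8 and 13 in SAL, or 0.53 to 0.99 CPM and 0.88 to 1.92 CPM. It did not pass the filter on low counts. Without the filter, its log2 fold change was 0.98 ± 0.53 (SE, adjusted p = 0.318, edgeR), so the difference did not pass the test.

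**Figure D3:**
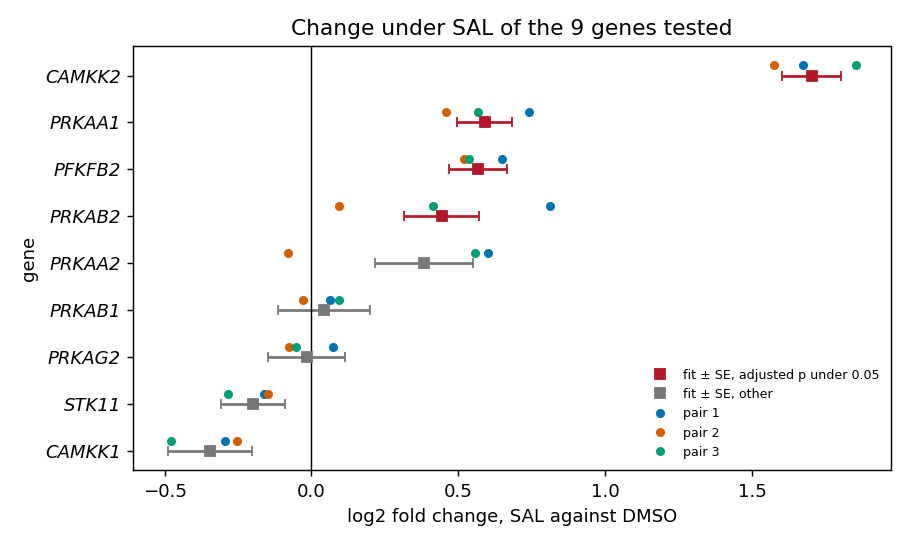
Log2 fold change, SAL against DMSO, of the 9 genes tested (squares, fit ± standard error, red for adjusted p under 0.05) with the log2 difference of each replicate pair (circles). CAMKK2 stands at 1.70, PRKAA1, PFKFB2 and PRKAB2 at 0.59, 0.57 and 0.44, and the other genes lie between -0.34 and 0.38.

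Per exon length, the order of the genes in DMSO was PRKAA1 with 40.8 ± 8.12 RPKM, CAMKK2 with 11.0 ± 7.67, PRKAB2 with 7.95 ± 1.73, STK11 with 5.25 ± 3.32, PFKFB2 with 4.96 ± 1.54, CAMKK1 with 2.85 ± 1.24, PRKAB1 with 2.28 ± 0.43, PRKAA2 with 1.55 ± 0.17, PRKAG2 with 1.402 ± 0.33 and PPARGC1A with 0.07 ± 0.02 (SD, n = 3). From CAMKK2 down to PRKAB1 each gene overlapped its neighbours in this order, as did PRKAA2 and PRKAG2, whereas the lowest PRKAB1 value of 1.83 RPKM was above the highest PRKAA2 value of 1.73, and the lowest PRKAA1 value of 31.8 RPKM was above the highest CAMKK2 value of 19.4. In SAL, CAMKK2 reached 13.7, 57.6 and 33.8 RPKM, above PRKAB2 (7.91 to 13.2) in every library and overlapping PRKAA1 (43.7 to 79.4). These levels rest on the exons of a newer annotation than the one used for counting.

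The tested genes whose profile over the 6 libraries lay nearest to that of CAMKK2 were PMEPA1, LRIG1, SORD, PEX10 and CAPZB. Nearness was the root mean square difference of log2 CPM after centring each gene on its mean, over 9664 genes with at least 100 reads on average. It was 0.163 for PMEPA1, 0.165 for LRIG1, 0.176 for SORD, 0.178 for PEX10 and 0.180 for CAPZB. The log2 fold changes of these 5 genes under SAL ran from 1.42 for CAPZB to 1.96 for PMEPA1. Values near that of CAMKK2 follow from choosing the genes by nearness and are no separate result. The profiles hold the differences between replicate numbers as well as the change under SAL.

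The wider pathway was read from 6 lists with 87 other genes, of which 81 were tested. Of these, 15 were up-regulated DEGs (18.5%, against 11.5% of all genes) and 14 were down-regulated (17.3%, against 9.37%), with a median log2 fold change of -0.0053. These counts depended on the libraries, as did those over all genes. Without replicate 3 there were 4 and 3 of 80, beside 750 and 483 of 16992 over all genes. Without replicate 2 there were 11 and 7 of 80, beside 1572 and 1367 of 17267. Without the replicate block none was a DEG in edgeR, with 2 higher and 3 lower at an unadjusted p under 0.05. With DESeq2 and the block there were 10 and 5 of 81, beside 1290 and 950 of 16835.

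Of 22 AMPK substrates, all of them tested, 9 rose (40.9%, against 11.5% of all genes) and 3 fell (13.6%, against 9.37%). Their median log2 fold change was 0.17. Without replicate 3, 4 rose and none fell, and with DESeq2 and the block 8 rose and 1 fell. TBC1D4 and TBC1D1 encode Rab GTPase-activating proteins that hold glucose transporters inside the cell until they are phosphorylated. TBC1D4 had 8.43, 30.9 and 28.1 CPM in DMSO and 45.2, 118 and 114 CPM in SAL, so that every SAL library was above every DMSO library. Its log2 fold change was 2.09 ± 0.12 (SE, adjusted p = 6.65e-09, edgeR), and that of TBC1D1 was 0.80 ± 0.10 (SE, adjusted p = 2.27e-05). The other 7 that rose had log2 fold changes of 0.41 to 0.70. They include ACACA, the acetyl-CoA carboxylase of fatty acid synthesis, with 0.52 (adjusted p = 0.000913, edgeR, named after its values were seen). ACACB, the mitochondrial acetyl-CoA carboxylase, fell with a log2 fold change of -0.51 (adjusted p = 0.0103, edgeR). TXNIP, which restrains glucose uptake, fell with -0.53 (adjusted p = 0.00275, edgeR).

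Of 14 genes of the calmodulin kinase cascade, 11 were tested, 3 rose (27.3%, against 11.5% of all genes) and 2 fell (18.2%, against 9.37%), with a median log2 fold change of -0.04. Without replicate 3 none rose and 2 fell, without replicate 2 1 rose and 2 fell, and DESeq2 with the block also gave 1 and 2. CAMK2N1, an inhibitor of CaM kinase II, had 46.0, 85.5 and 36.3 CPM in DMSO and 4.87, 11.3 and 3.20 CPM in SAL, so that the groups were far apart. Its log2 fold change was -3.15 ± 0.15 (SE, adjusted p = 1.05e-09, edgeR). CAMK2D, a catalytic gene of CaM kinase II, fell with -1.21 ± 0.13 (SE, adjusted p = 5.38e-06). CAMK2N2, the second inhibitor gene, had 9 to 10 reads in DMSO and 14 to 54 in SAL (1.55 ± 0.38 on the log2 scale, adjusted p = 0.00787, edgeR). CALM3, a calmodulin gene, rose with a log2 fold change of 0.42 ± 0.09 (SE, adjusted p = 0.00330).

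Of 13 AMPK regulators, 12 were tested, 1 rose (8.33%, against 11.5% of all genes) and 3 fell (25%, against 9.37%), with a median log2 fold change of 0.02. Without replicate 3 none rose and 1 fell, without replicate 2 1 rose and 2 fell, and DESeq2 with the block gave 1 and 1. The 3 that fell were the sestrin genes, whose products respond to stress and favour AMPK activity. SESN3 went from 1223 ± 482 to 505 ± 150 CPM (SD, n = 3) with every SAL library below every DMSO library, a log2 fold change of -1.23 ± 0.11 (SE, adjusted p = 7.65e-07, edgeR). For SESN2 the change was -0.56 (adjusted p = 0.0182) and for SESN1, named after its values were seen, -0.40 (adjusted p = 0.0211, edgeR). FNIP2, a partner of folliculin, rose with 0.60 ± 0.11 (SE, adjusted p = 0.00114). The genes of the proteins that bind LKB1, STRADA, STRADB, CAB39 and CAB39L, had log2 fold changes between -0.03 and 0.14 and none was a DEG (the smallest adjusted p was 0.349).

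Of 12 AMPK-related kinases that LKB1 activates, 11 were tested, and 1 rose (MARK4, log2 fold change 0.78, adjusted p = 0.0181, edgeR) and 1 fell (MARK1, -0.68, adjusted p = 0.0440), near the background shares, with a median of -0.17. Without replicate 1 the counts were 1 and 4, without replicate 2 or replicate 3 none was a DEG, and none was in the blocked DESeq2 test. MARK1 was also no DEG without the filter on low counts. Of 17 partners of PGC-1, 1 rose (5.88%, against 11.5%) and 4 fell (23.5%, against 9.37%), with a median of -0.02. TFAM, which packages and transcribes mitochondrial DNA, had a log2 fold change of -0.48 ± 0.09 (SE, adjusted p = 0.00164, edgeR). PPARGC1B, the relative of PPARGC1A, had -0.38 (adjusted p = 0.0193), and PPARA, a receptor for fatty acids, had 0.43 (adjusted p = 0.0180). Without replicate 3 none of this list was a DEG, without replicate 2 1 rose and 1 fell, with DESeq2 and the block 1 fell, and without the low-count filter 1 rose and 2 fell. Of 9 genes of the fructose phosphate step, 8 were tested and PFKFB3 was the only DEG (12.5% down-regulated, against 9.37%), with a median of -0.05. None was a DEG without replicate 2, without replicate 3 or with DESeq2 and the block.

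**Figure D4:**
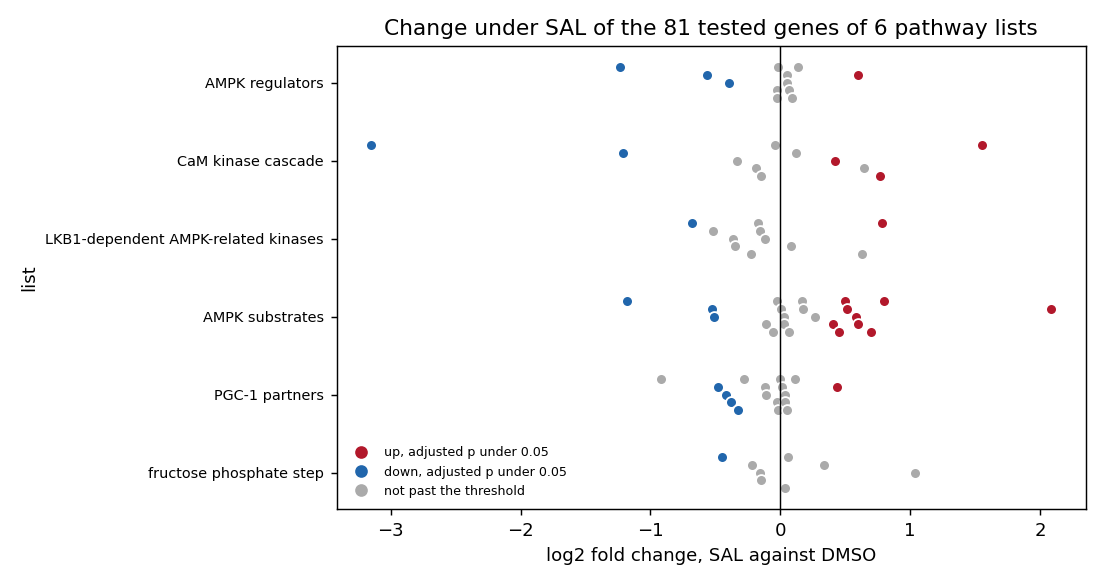
Log2 fold change, SAL against DMSO, of the 81 tested genes of the 6 pathway lists (one circle a gene, red up and blue down at an adjusted p under 0.05, grey otherwise, spread vertically within a list for visibility). Among the AMPK substrates 9 circles are red and 3 blue, with TBC1D4 farthest right at 2.09, and CAMK2N1 is farthest left at -3.15.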

How the data were processed

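RNA-seq counts of 6 C4-2 libraries were used, 3 DMSO and 3 SAL. The authors trimmed the reads, mapped only read 1 with tophat (2.1.0, hg19) and counted it per gene with htseq-count (0.11.2) and gencode annotation, ignoring strand. The deposited values are raw counts per gene symbol. From these, 523 rRNA symbols were removed, as in the methods of the study, and edgeR's filterByExpr kept 16835 of 55242 symbols. SAL was compared with DMSO by edgeR 4.0.16 (R 4.3.3, TMM, robust quasi-likelihood test, Benjamini-Hochberg adjustment over all genes tested) with the replicate number as a block, since the study used a paired test. Deviations of same-numbered DMSO and SAL libraries from their own group means had correlations over genes of 0.886, 0.856 and 0.739. Libraries of different numbers reached at most 0.04. Deviations within a group cancel by construction, so these low values are no separate result. No source used here says that cultures of 1 number were raised together.

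CPM are counts scaled by TMM library size. Pair differences and ratios use log2 CPM with a prior count of 2. Standard errors are the size of the log2 fold change over the root of the F statistic. RPKM use merged exons of GENCODE lifted to GRCh37, the assembly of hg19. Promoter windows are RefSeq sequences of GRCh38, placed in GRCh37 by exact match. The fit was tested on simulated data. The rule for named genes took all 10 genes, from each list at most 2 DEGs a direction with the smallest adjusted p and 1 direction in all pairs, the 5 profiles nearest to CAMKK2, and KLK3 and FKBP5. Genes and lists were chosen with earlier results of these data known. The alternatives were no block, DESeq2 1.42.0 with the block, its size factors, 2 other filters, rRNA genes kept, each replicate number left out, an adjusted p under 0.01 and, for ratios, a prior count of 0.5. With 6 libraries, p-values of the fits with the block measure only the spread left between these cultures after the replicate number is fitted. Some markers and list genes are not reported here by name.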

Additional observations from a re-analysis of the deposited data

How the results depend on the processing

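The replicate block was the choice on which most depended. With no replicate block, 18 genes were up-regulated and 3 down-regulated among all genes, against 1931 and 1577 with it, and the counts were 0 and 0 among the CAMKK2-AMPK genes and 0 and 0 among the pathway lists (1 and 0, and 2 and 3, at an unadjusted p under 0.05, edgeR). With the block and DESeq2, 950 genes of all and 5 of the lists were down-regulated. At an adjusted p under 0.01 the counts over all genes were 1234 and 876, and 5 list genes were down-regulated. Leaving out each replicate number gave 750 to 2443 up-regulated and 483 to 1955 down-regulated genes over all, 3 to 5 up-regulated CAMKK2-AMPK genes, and 4 to 15 up-regulated and 3 to 16 down-regulated list genes, lowest for the lists and for all genes without replicate 3. The cause was not tested. CAMKK2, PRKAA1 and PFKFB2 passed the threshold under each of the 8 alternatives with the block, with the highest adjusted p at 2.23e-05, 0.0493 and 0.0423, each without replicate 3. PRKAB2 passed under 5 of 9. No direction of the 9 genes reversed under any of the 9 alternatives, which reuse the same libraries. PRKAG2 (-0.067 to -0.00095) and PRKAB1 (0.016 to 0.064) lay near 0, so their kept signs give no direction. The 4 paralogue ratios kept their sign under all 4 of their alternatives. The ratio of PRKAA1 to PRKAA2 ranged from 0.08 without replicate 2 to 0.34 without replicate 3. PPARGC1A was tested only without the filter on low counts or without replicate 2.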
